A study of Mus musculus with 6 samples.

Results

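The IL-1 family is described here in mouse embryonic fibroblasts (MEFs) through 10 of its genes, which were taken by symbol from a table of 17092 genes and were all found there. They are the cytokines *Il1a*, *Il1b*, *Il18* and *Il33*, the receptor chains *Il1r1*, *Il1rap*, *Il1rl1* and *Il1rl2*, and the antagonists *Il1rn* and *Il18bp*. RNA from MEFs of WT mice and of *Aff3ir-ORF2-/-* mice, which lack the nested gene variant *Aff3ir-ORF2* in all cells, was sequenced in 3 libraries of each genotype. MEFs are mixed connective tissue cells grown from embryos, and no treatment is given for these libraries in the labels. The age and sex of the embryos and the number of embryos behind a library are not given either. Since nothing says that the libraries came from separate cultures or animals, the p-values measure the spread between these libraries, which may be technical. The comparison asks which genes differ in MEFs without *Aff3ir-ORF2*.

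Cytokines of the IL-1 family start inflammatory signalling by binding a receptor chain of their own, which then recruits a second chain. IL-1α (*Il1a*) and IL-1β (*Il1b*) bind IL1R1, IL-33 binds ST2 (*Il1rl1*) and the IL-36 cytokines bind the IL-36 receptor (*Il1rl2*). All of these receptors recruit the shared accessory chain IL1RAP, whereas the IL-18 receptor has an accessory chain of its own. The assembled receptors signal through the adaptor MyD88 to NF-κB and MAP kinases. The IL-1 receptor antagonist (*Il1rn*) occupies IL1R1 without recruiting IL1RAP, and the IL-18 binding protein (*Il18bp*) captures free IL-18. Fibroblasts are well known to respond to IL-1, and *Il1rl1* was first found as a serum-induced transcript of fibroblasts.

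Values are estimated read counts, or CPM (counts scaled to a common library total after edgeR's TMM scaling), and errors are SD over 3 libraries. Total counts were 17435133 to 17726034 in WT and 18209421 to 18252330 in *Aff3ir-ORF2-/-* libraries, so 1 count weighed about the same everywhere. A gene with at most 3 counts in every library of a genotype was read as at the detection floor, which lay at 0.161 to 0.174 CPM and covers counting error only. All 10 listed fibroblast markers stood above that floor in every library. Their summed level was 15049.7 to 15129.3 CPM in WT and 10144.9, 10677.4 and 14720.2 CPM in *Aff3ir-ORF2-/-* libraries. The 16 listed macrophage markers, among them *Cd68*, *Csf1r* and *Adgre1*, summed to 24.3 to 27.8 CPM in WT and to 1187 to 2055 CPM in *Aff3ir-ORF2-/-* libraries. All 15 that could be tested were higher in *Aff3ir-ORF2-/-* MEFs. Several, such as *C1qa* and *C1qb* at 0 counts in WT, were tested only because of their *Aff3ir-ORF2-/-* counts. That number is thus partly set by the filter on low counts, although *Cd68*, *Csf1r* and *Lyz2* had more than 10 counts in every library. In bulk RNA, a change in the number of cells of a type and a change in RNA per cell cannot be told apart. The *Aff3ir-ORF2-/-* libraries varied more among themselves than the WT libraries, with a common biological coefficient of variation of 0.0996 against 0.0185, and of 0.0641 once replicate 2 was left out.

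The antagonist *Il1rn* rose and most of the receptor chains were lower. *Il1rn* rose 20-fold in *Aff3ir-ORF2-/-* MEFs, the ligand *Il33* and the IL-36 receptor gene *Il1rl2* fell by about the same factor, 2.03-fold and 2.15-fold, and the other receptor chains differed by less than 1.5-fold. A gene was called when its p in edgeR's quasi-likelihood test was under 0.05 after Benjamini-Hochberg adjustment over all 13075 genes tested and its fold change was at least 1.5. Of the 10 family genes, 8 had enough counts to be tested, and *Il1b* and *Il18* did not. Of these 8, 1 was called higher and 2 were called lower. Over all genes tested, 14.2% were called higher, 7.27% were called lower and 21.4% were called in either direction. The adjusted p alone was passed by 6 of the 8, which were *Il1rn*, *Il33*, *Il1rl2*, *Il1rl1*, *Il1rap* and *Il1r1*, against 56.8% of all genes tested. The same 6 genes had libraries that did not overlap between genotypes, as did 66.0% of all genes tested. These 6 are 75.0% of the 8 tested, so neither share stands far from the background. The median log2 fold change of the 8 genes was -0.26, beside 0.01 over all genes tested.

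**Figure D1:**
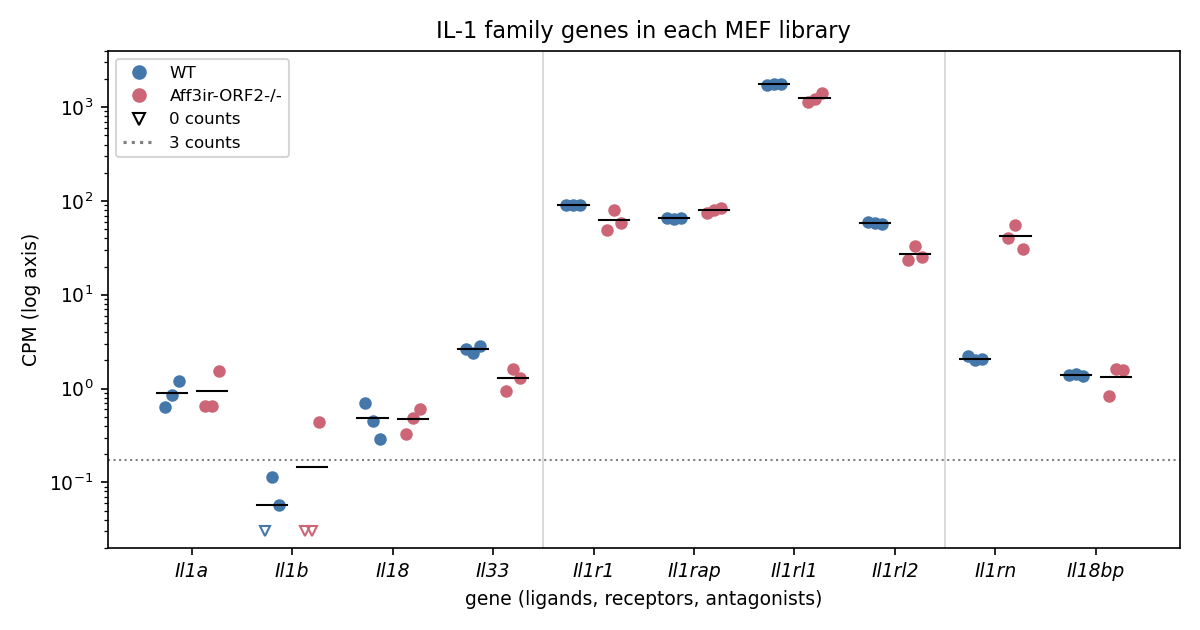
Level of each of the 10 IL-1 family genes in every library, in CPM on a shared log axis, with 1 point per WT (blue) or *Aff3ir-ORF2-/-* (red) library, the mean as a black line, libraries at 0 counts as open triangles at the bottom and 3 counts as a dotted line. The 3 *Aff3ir-ORF2-/-* libraries of *Il1rn* lie at 30.5 to 55.0 CPM against 1.99 to 2.2 CPM in WT, and the points of *Il1a*, *Il1b*, *Il18* and *Il18bp* overlap between genotypes.

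**Figure D2:**
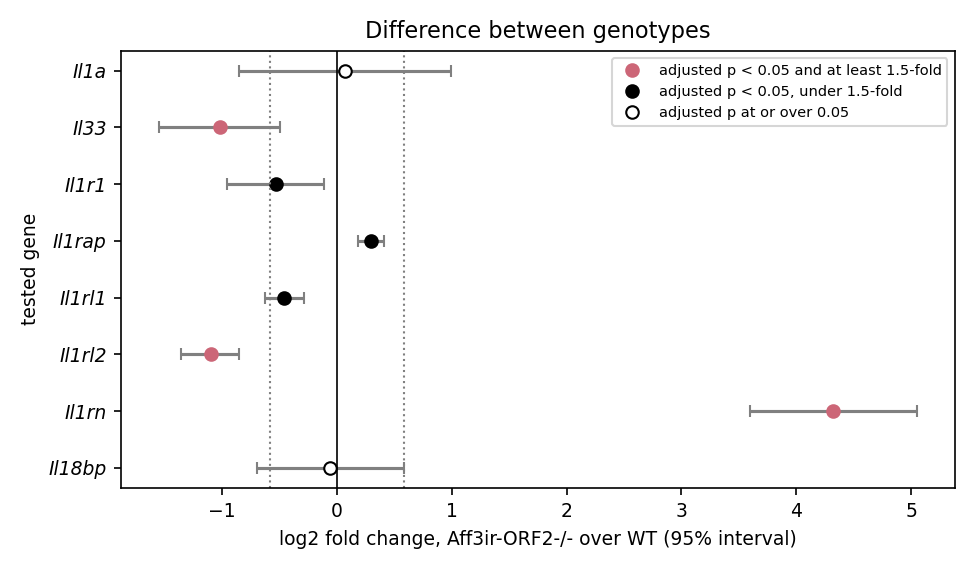
Log2 fold change of the 8 tested IL-1 family genes, *Aff3ir-ORF2-/-* over WT, with 95% confidence intervals and dotted lines at a 1.5-fold change. *Il1rn* lies at 4.32, *Il33* at -1.02 and *Il1rl2* at -1.10, and the intervals of *Il1a* and *Il18bp* span 0.

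The sequences before the starts of the gene that rose most and of 2 receptor genes that fell are shown because the counts are per gene and do not say which start was used. RefSeq lists 15 windows of 300 bases for the 10 family genes on GRCm38.p6, each with 250 bases before and 50 bases after an annotated start. A further *Il1rn* window, chr2:24345121-24345420, overlaps the second one shown and was not printed. *Il1rn* has separate starts for its secreted and intracellular forms, and *Il1rl1* is known in mice to have a distal and a proximal promoter. Capitals mark bases that match the AP-1 motif TGANTCA in the first *Il1rn* window and the NF-κB motif GGANTTTCC in the *Il1rl2* window and the second *Il1rl1* window, and a window wholly in lower case held none of the 4 motifs searched. Each motif was read on both strands.
Il1rn chr2:24336610-24336909 + strand: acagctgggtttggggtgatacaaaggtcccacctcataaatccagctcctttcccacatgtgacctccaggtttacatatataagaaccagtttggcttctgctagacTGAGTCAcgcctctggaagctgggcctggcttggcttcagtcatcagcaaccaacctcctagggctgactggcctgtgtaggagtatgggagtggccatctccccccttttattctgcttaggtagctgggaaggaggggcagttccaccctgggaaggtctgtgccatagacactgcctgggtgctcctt
Il1rn chr2:24345041-24345340 + strand: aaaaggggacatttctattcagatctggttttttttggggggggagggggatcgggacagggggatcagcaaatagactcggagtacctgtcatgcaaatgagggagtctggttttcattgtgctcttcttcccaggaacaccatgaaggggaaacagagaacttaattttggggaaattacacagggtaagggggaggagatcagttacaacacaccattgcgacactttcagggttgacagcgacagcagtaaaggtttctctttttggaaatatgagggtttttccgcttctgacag
Il1rl2 chr1:40324339-40324638 + strand: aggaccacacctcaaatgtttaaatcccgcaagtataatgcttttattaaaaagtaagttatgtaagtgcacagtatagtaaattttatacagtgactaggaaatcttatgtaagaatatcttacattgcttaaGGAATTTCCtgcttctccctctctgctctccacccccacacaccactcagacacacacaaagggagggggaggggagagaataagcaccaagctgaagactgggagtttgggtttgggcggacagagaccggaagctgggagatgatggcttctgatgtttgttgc
Il1rl1 chr1:40429320-40429619 + strand: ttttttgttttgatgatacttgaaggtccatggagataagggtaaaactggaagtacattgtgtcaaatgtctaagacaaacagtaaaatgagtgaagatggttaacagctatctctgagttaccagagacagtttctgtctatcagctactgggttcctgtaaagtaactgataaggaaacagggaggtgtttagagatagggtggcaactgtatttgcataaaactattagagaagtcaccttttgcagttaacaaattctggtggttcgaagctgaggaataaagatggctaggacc
Il1rl1 chr1:40439379-40439678 + strand: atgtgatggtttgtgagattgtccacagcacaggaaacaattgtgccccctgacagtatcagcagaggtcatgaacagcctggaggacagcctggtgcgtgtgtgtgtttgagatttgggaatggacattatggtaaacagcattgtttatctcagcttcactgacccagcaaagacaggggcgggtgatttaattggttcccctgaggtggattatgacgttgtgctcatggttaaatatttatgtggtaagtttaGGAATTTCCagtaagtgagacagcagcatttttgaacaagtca

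The AP-1 motif lay at bases 110 to 116 of the first *Il1rn* window, that is from position -141 relative to the start. It was also found in the *Il1a* window, at bases 239 to 245, and in 7.81% of all 32851 windows of this length. The NF-κB motif lay at bases 135 to 143 of the *Il1rl2* window and at bases 258 to 266 of the second *Il1rl1* window, where it starts 7 bases after the transcription start, and in 1.25% of all windows. A longer form of this motif, with 1 more G at its 5′ end, was found in 0 of the 15 windows of the family and in 0.411% of all windows. The PU.1 motif GAGGAAGT was found in 0 of the 15 windows, beside 3.2% of all windows. The interferon-stimulated response element, spelled GAAANNGAA, was found at bases 271 to 279 of the *Il1rap* window and in 8.56% of all windows. The shorter spellings of the NF-κB and interferon motifs were chosen after the longer ones had been searched. These are matches of letters, and binding was not measured.

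Among the ligands, *Il33* fell and the IL-1 and IL-18 genes had few reads in both genotypes. *Il33* encodes a nuclear cytokine that is released when cells are damaged. It had 45, 42 and 50 counts in the WT libraries, in the order of their replicate numbers, and 17, 30 and 24 counts in the *Aff3ir-ORF2-/-* libraries. Every *Aff3ir-ORF2-/-* library was below every WT library, and the lowest WT library stood 1.48-fold above the highest *Aff3ir-ORF2-/-* library. The mean fell from 2.62 ± 0.237 to 1.28 ± 0.339 CPM (SD, n = 3), and the log2 fold change was -1.02 (SE 0.23, 95% confidence interval -1.55 to -0.50, adjusted p = 0.00439, edgeR). With so few reads, counting error is a large part of the spread of *Il33*.

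*Il1a*, which encodes the IL-1 form that is active without cleavage by caspase-1, had 11, 15 and 21 counts in WT and 12, 12 and 28 counts in *Aff3ir-ORF2-/-* libraries. The genotypes overlapped, at 0.897 ± 0.285 and 0.942 ± 0.505 CPM (SD, n = 3). Its log2 fold change was 0.07 (SE 0.41, adjusted p = 0.897, edgeR), with a 95% confidence interval of -0.85 to 0.99, so that a level in *Aff3ir-ORF2-/-* MEFs of 0.554-fold to 1.98-fold that of WT was within its error.

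*Il1b*, whose product needs cleavage by caspase-1 and which is mostly made by myeloid cells, was at the floor in WT with 0, 2 and 1 counts. It had 0, 0 and 8 counts in *Aff3ir-ORF2-/-* libraries, so all of its reads in that genotype came from replicate 3. *Il18*, another substrate of caspase-1, had 12, 8 and 5 counts in WT and 6, 9 and 11 counts in *Aff3ir-ORF2-/-* libraries, or 0.479 ± 0.206 and 0.47 ± 0.135 CPM (SD, n = 3). Neither gene passed the filter on low counts. A 2-sided exact permutation test of the CPM values gave p = 1 for each, in a design whose smallest possible p is 0.1.

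Of the 4 receptor chains, the 3 that bind ligands were lower and the shared accessory chain was higher, each past the adjusted p. *Il1rl2* had the largest decrease in the family. It had 60.4, 57.8 and 56.9 CPM in WT and 23.7, 32.8 and 25.0 CPM in *Aff3ir-ORF2-/-* libraries. The groups were well apart, the lowest WT library being 1.74-fold above the highest *Aff3ir-ORF2-/-* library. The mean fell from 58.4 ± 1.81 to 27.2 ± 4.91 CPM (SD, n = 3), with a log2 fold change of -1.10 (SE 0.11, 95% confidence interval -1.36 to -0.85, adjusted p = 7.23e-05, edgeR).

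*Il1rl1* was by far the most abundant gene of the family. Its soluble product ST2 is a decoy for IL-33 and its membrane product is the IL-33 receptor, which the counts per gene do not separate. It had 1725, 1767 and 1748 CPM in WT and 1150, 1221 and 1432 CPM in *Aff3ir-ORF2-/-* libraries. All *Aff3ir-ORF2-/-* libraries were lower, with replicate 3 nearest to WT. The mean was 1747 ± 20.8 CPM in WT and 1268 ± 147 CPM in *Aff3ir-ORF2-/-* MEFs (SD, n = 3), a 1.38-fold decrease (log2 fold change -0.46, SE 0.08, 95% confidence interval -0.63 to -0.29, adjusted p = 0.00067, edgeR) that passed the adjusted p and not the fold change. Ranked by CPM per kilobase of transcript, *Il1rl1* was at place 132 of 16475 genes in WT and at place 191 in *Aff3ir-ORF2-/-* MEFs.

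*Il1r1* encodes the signalling receptor of IL-1α and IL-1β. It had 91.1, 91.5 and 90.3 CPM in WT replicates 1, 2 and 3, which is a coefficient of variation of 0.67%. In *Aff3ir-ORF2-/-* replicates 1, 2 and 3 it had 49.4, 80.3 and 58.7 CPM, a coefficient of variation of 25.2%. All 3 *Aff3ir-ORF2-/-* libraries were lower, yet replicate 2 lay closer to WT than to the other *Aff3ir-ORF2-/-* libraries. The log2 fold change was -0.53 (SE 0.17, 95% confidence interval -0.96 to -0.11), with an adjusted p of 0.0401 in edgeR's quasi-likelihood test. This p depended on the libraries and on the scaling, since it was under 0.05 in 8 of 15 alternatives and ranged from 1.35e-07 to 0.113. It was 0.0913, 0.0901 and 0.0874 without WT replicates 1, 2 and 3 and 0.113 without *Aff3ir-ORF2-/-* replicate 3. Without *Aff3ir-ORF2-/-* replicate 2 the log2 fold change was -0.76 (SE 0.06), past the 1.5-fold threshold.

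*Il1rap*, the accessory chain shared by the receptors of IL-1, IL-33 and IL-36, was the only receptor chain of the 4 that rose. It had 65.1, 65.0 and 65.5 CPM in WT and 74.8, 81.0 and 84.2 CPM in *Aff3ir-ORF2-/-* libraries. The increase was small against the other changes and steady across libraries, from 65.2 ± 0.242 to 80.0 ± 4.79 CPM (SD, n = 3). The log2 fold change was 0.30 (SE 0.05, 95% confidence interval 0.18 to 0.41, adjusted p = 0.00112, edgeR), or 1.23-fold. Thus the ligand-binding chains and their common partner changed in opposite directions in the same libraries.

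The antagonist *Il1rn* had the largest change in the family. It had 38, 35 and 36 counts in WT and 726, 1025 and 560 counts in *Aff3ir-ORF2-/-* libraries. The lowest *Aff3ir-ORF2-/-* library was 13.8-fold above the highest WT library. On the CPM scale the mean rose from 2.08 ± 0.109 to 41.8 ± 12.4 (SD, n = 3), and the log2 fold change was 4.32 (SE 0.30, 95% confidence interval 3.60 to 5.05, adjusted p = 6.14e-05, edgeR), which is 12.1-fold to 33.1-fold. Its place by CPM per kilobase moved from 10903 to 3785 of 16475 genes. The *Aff3ir-ORF2-/-* libraries differed among themselves by up to 1.80-fold, with replicate 2 the highest and replicate 3 the lowest.

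*Il18bp* showed nothing of this kind. It had 24, 25 and 24 counts in WT and 15, 30 and 29 counts in *Aff3ir-ORF2-/-* libraries, and the genotypes overlapped at 1.40 ± 0.0244 and 1.34 ± 0.446 CPM (SD, n = 3). The log2 fold change was -0.06 (SE 0.29, 95% confidence interval -0.70 to 0.58, adjusted p = 0.872, edgeR). Its sign followed *Aff3ir-ORF2-/-* replicate 1, as it was 0.19 without that library.

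The order of the genes by level was read from CPM per kilobase of the longest annotated transcript, so that genes of unequal length could be compared. In WT, *Il1rl1* stood at 329 ± 3.92, followed by *Il1r1* at 15.6 ± 0.105, *Il1rl2* at 14.9 ± 0.462 and *Il1rap* at 14.4 ± 0.0536 CPM per kilobase. *Il1rl2* differed from each of its neighbours in this order by less than 2 of its own SD. *Il33* and *Il1rn* followed at 1.03 ± 0.093 and 0.816 ± 0.0425 CPM per kilobase. *Il18*, *Il18bp* and *Il1a* lay at 0.541 ± 0.233, 0.537 ± 0.0094 and 0.455 ± 0.144 CPM per kilobase, apart by less than their spread, and *Il1b* was last at 0.042 ± 0.0419. In *Aff3ir-ORF2-/-* MEFs *Il1rl1* was again first at 239 ± 27.7 CPM per kilobase. *Il1rap* and *Il1rn* came next at 17.7 ± 1.06 and 16.4 ± 4.84, a difference smaller than the spread, above *Il1r1* at 10.8 ± 2.72 and *Il1rl2* at 6.95 ± 1.26. *Il18*, *Il18bp*, *Il33* and *Il1a* then lay between 0.477 and 0.532 CPM per kilobase and did not differ beyond their spread.

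The balance of the pairs was read as ratios of CPM per kilobase within each library. *Il1rn* per *Il1r1* was 0.0551, 0.0495 and 0.0519 in WT and 1.84, 1.56 and 1.18 in *Aff3ir-ORF2-/-* libraries. By this measure the antagonist transcript was far below its receptor's in every WT library and above it in every *Aff3ir-ORF2-/-* library. The second part depends on the lengths, 2554 bases for *Il1rn* and 5819 for *Il1r1*. In CPM, *Il1rn* stayed below *Il1r1* in *Aff3ir-ORF2-/-* replicates 1, 2 and 3, at 39.8, 55.0 and 30.5 against 49.4, 80.3 and 58.7. Counts per gene do not say which transcripts were present. *Il1rn* per *Il1a* plus *Il1b* was 2.67, 1.51 and 1.24 in WT and 46.8, 66.0 and 10.9 in *Aff3ir-ORF2-/-* libraries, where the low value of replicate 3 goes with its higher *Il1a* and *Il1b* counts. *Il1rl1* per *Il1rap* was 22.6, 23.2 and 22.8 in WT and 13.1, 12.8 and 14.5 in *Aff3ir-ORF2-/-* libraries. *Il1rl1* per *Il33* rose from 317, 355 and 293 in WT to 591, 364 and 526 in *Aff3ir-ORF2-/-* libraries, of which replicate 2 was barely above WT. *Il1rl1* per *Il1r1* overlapped, at 20.8, 21.2 and 21.2 in WT against 25.6, 16.7 and 26.8. With 6 ratios compared, the 2-sided exact permutation test gave p = 0.1 for those that did not overlap and 0.5 for *Il1rl1* per *Il1r1* (0.12 and 0.5 after Benjamini-Hochberg adjustment), and 0.1 is the smallest p that 3 libraries against 3 allow.

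Other genes of the family were mostly near the floor. Of the 6 other receptor genes, 1 could be tested. *Il18rap*, the accessory chain of the IL-18 receptor, had 364, 344 and 328 counts in WT and 260, 245 and 325 counts in *Aff3ir-ORF2-/-* libraries. Its mean fell from 19.8 ± 1.19 to 15 ± 2.37 CPM (SD, n = 3), with a log2 fold change of -0.40 (SE 0.11, adjusted p = 0.0119, edgeR) that did not reach 1.5-fold and had an adjusted p of 0.053 without WT replicate 1. The ligand-binding chain *Il18r1* had at most 4 counts in any library, so the accessory chain was measured almost without its partner. The decoy receptor *Il1r2* had 11, 10 and 4 counts in WT and 2, 2 and 5 counts in *Aff3ir-ORF2-/-* libraries. The inhibitory receptor *Sigirr* had at most 4 counts and *Il1rapl2* at most 1. *Il1rapl1*, best known from neurons, had 0, 1 and 1 counts in WT and 10, 9 and 6 counts in *Aff3ir-ORF2-/-* libraries. The IL-36 cytokines, ligands of the *Il1rl2* product, were close to 0, with at most 6 counts of *Il36g* and at most 1 of *Il36a*, and *Il36b*, *Il36rn* and *Il1f10* were not analysed here.

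The receptor genes that fell are neighbours. In the gene order of RefSeq GRCm38.p6, *Il1r2*, *Il1r1*, *Il1rl2*, *Il1rl1*, *Il18r1* and *Il18rap* follow each other among the measured genes of chromosome 1, and 12 genes of the table lie between them and *Aff3*, the gene in which *Aff3ir-ORF2* is nested. *Aff3* itself had 406, 406 and 418 counts in WT and 229, 186 and 209 counts in *Aff3ir-ORF2-/-* libraries, a log2 fold change of -1.06 (SE 0.09, adjusted p = 1.23e-05, edgeR). Of the 6 receptor genes in a row, the 4 that could be tested were all lower in *Aff3ir-ORF2-/-* MEFs, with a median log2 fold change of -0.50. Of these 4, 1 was called lower, which was *Il1rl2*. Over all genes tested, 50.6% had a positive log2 fold change and 7.27% were called lower. Of the 12 genes between *Aff3* and *Il1r2*, 10 could be tested, with a median log2 fold change of 0.02. None of those 10 was called lower and 1 was called higher, where 14.2% of all genes tested were called higher. This was *Creg2*, at 0, 1 and 2 counts in WT and 28, 53 and 54 counts in *Aff3ir-ORF2-/-* libraries. Without it, the log2 fold changes of this stretch ran from -0.47 (*Npas2*, not past the test) to 0.49 (*Rnf149*). By the adjusted p alone, *Rpl31* was lower (log2 fold change -0.19, adjusted p = 0.00392, edgeR) and *Rnf149* was higher (adjusted p = 0.00014, edgeR). *Il1rap* lies on chromosome 16, and *Il1rn*, *Il1a* and *Il1b* lie on chromosome 2. There, the measured genes just before *Il1rn* are those for IL-36γ and IL-36α, which were close to 0 in both genotypes.

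**Figure D3:**
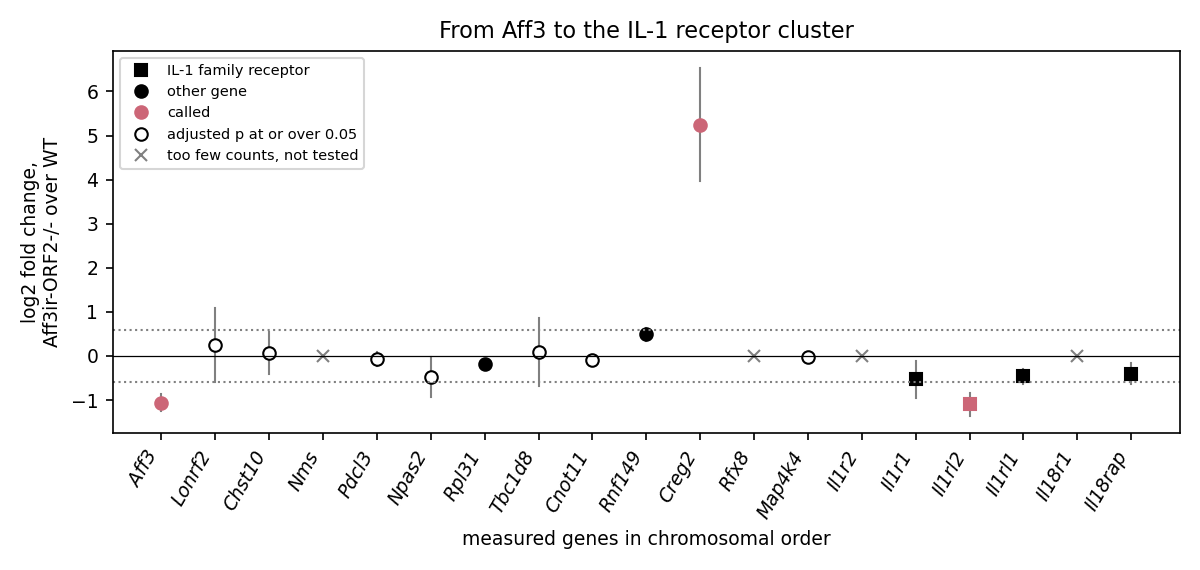
Log2 fold change, *Aff3ir-ORF2-/-* over WT, of the measured genes from *Aff3* to *Il18rap* in their order along the chromosome, with 95% confidence intervals as lines, squares for IL-1 family receptors, circles for other genes, red for called genes, open symbols for an adjusted p of at least 0.05, grey crosses for genes with too few counts and dotted lines at a 1.5-fold change. *Il1r1*, *Il1rl2*, *Il1rl1* and *Il18rap* all lie below 0, from -1.10 to -0.40, whereas 9 of the 10 tested genes between *Aff3* and them lie from -0.47 to 0.49 and *Creg2*, which has 3 counts in WT, lies above.

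Downstream of the receptors, the differences in the signalling chain were small in size. All 17 listed genes from the adaptors to the IκB kinases were tested and 0 were called, by the edgeR test at 1.5-fold. Over all genes tested, 21.4% were called in either direction. By the adjusted p alone, 3 were higher and 7 were lower, 58.8% of the list beside 56.8% of all genes tested. Their log2 fold changes ran from -0.30 to 0.36, with a median of -0.12. The largest increase was that of the adaptor *Myd88*, from 26.5 to 34.0 CPM (adjusted p = 0.00121, edgeR). *Ikbkg*, the regulatory subunit of the IκB kinase, rose from 56.8 to 69.4 CPM (adjusted p = 0.000947, edgeR), and the ubiquitin ligase *Traf6* fell from 38.4 to 31.4 CPM (adjusted p = 0.0024, edgeR). The genes with the most counts were *Tab2*, a bridge to the kinase TAK1, at 164 CPM in each genotype (adjusted p = 0.927, edgeR), and *Tollip*, a negative regulator, at 131 and 141 CPM (adjusted p = 0.138, edgeR).

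Among the genes that process and release IL-1β, IL-18 and IL-1α, inflammasome genes with few reads rose and abundant genes were lower. Of the 16 listed genes, 15 were in the table and 13 were tested. By the adjusted p alone 6 were higher and 5 lower, 84.6% of the list beside 56.8% of all genes tested. By edgeR at 1.5-fold, 6 were called higher and 0 lower, where 14.2% and 7.27% of all genes tested were called. The summed level of the list went from 1375.6 to 1393 CPM in WT to 986 to 1181 CPM in *Aff3ir-ORF2-/-* libraries. Most of that sum was *Capn2*, and the 6 called genes added little to it. The 6 called genes were the sensors *Aim2*, *Nlrp3* and *Nlrc4*, the adaptor *Pycard* and the proteases *Casp1* and *Casp4*. All of them but *Casp4* had fewer than 10 counts in every WT library and were tested only because of their *Aff3ir-ORF2-/-* counts, so the number called is partly set by the filter, and 1 was called when at least 10 counts were required in every library. *Casp1*, the protease that matures IL-1β and IL-18, had 1, 1 and 5 counts in WT and 31, 49 and 54 counts in *Aff3ir-ORF2-/-* libraries, a log2 fold change of 4.11 (SE 0.48, adjusted p = 7.89e-05, edgeR). *Aim2*, a sensor of cytosolic DNA, rose from 0.307 to 3.29 CPM (log2 fold change 3.40, adjusted p = 5.06e-05, edgeR). *Nlrp3* rose from 0.42 to 2.08 CPM (log2 fold change 2.29, adjusted p = 0.000212, edgeR) and *Pycard* from 0.382 to 1.41 CPM (log2 fold change 1.87, adjusted p = 0.00275, edgeR). *Nlrc4* went from 0, 1 and 0 counts to 16, 20 and 43 counts (adjusted p = 0.000409, edgeR). *Casp4*, the sensor of cytosolic lipopolysaccharide, was the most abundant of the 6 at 3.44 and 5.80 CPM (log2 fold change 0.75, adjusted p = 0.00806, edgeR). The 5 that were lower changed by less than 1.5-fold. *Capn2*, a calpain of the family that cuts IL-1α, fell from 941 to 711 CPM (log2 fold change -0.41, adjusted p = 0.00376, edgeR), and *Nek7*, a partner of NLRP3, from 208 to 176 CPM (log2 fold change -0.24, adjusted p = 0.0105, edgeR). *Casp8*, *Capn1* and *Hax1* had log2 fold changes of -0.34, -0.29 and -0.39.

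Genes that IL-1 is known to induce in fibroblasts split. Of 24 listed genes, 22 were tested, of which 10 were called higher and 5 lower by edgeR, or 7 and 4 when at least 10 counts were required in every library. Over all genes tested, 14.2% were called higher and 7.27% lower. The adjusted p alone was passed by 81.8% of the list and 56.8% of all genes tested. *Ccl20*, *Cxcl2* and *Lcn2* had fewer than 10 counts in every WT library. They were tested only because of their *Aff3ir-ORF2-/-* counts, so the number called higher is partly set by the filter. *Csf3*, with 7, 7 and 14 counts in *Aff3ir-ORF2-/-* libraries, was tested because of its WT counts. Among those that rose were the adhesion molecules *Icam1*, from 3.82 to 26.4 CPM (log2 fold change 2.79, adjusted p = 2.36e-06, edgeR), and *Vcam1*, from 152 to 246 CPM (log2 fold change 0.70, adjusted p = 2.74e-06, edgeR). The chemokines *Ccl20* and *Ccl2* rose with log2 fold changes of 3.15 and 0.64, and *Il6* with 1.67 (adjusted p of 2.84e-05, 4.73e-05 and 0.000125, edgeR). Lower in *Aff3ir-ORF2-/-* MEFs were *Nfkbiz*, an early NF-κB cofactor that IL-1 induces, from 108 to 57.3 CPM (log2 fold change -0.92, adjusted p = 2e-06, edgeR), and *Tnfaip3*, which encodes the feedback inhibitor A20, from 29.3 to 14.2 CPM (log2 fold change -1.05, adjusted p = 4e-05, edgeR). *Csf3* and *Cxcl1*, a growth factor and a chemokine for neutrophils, were also lower, with log2 fold changes of -1.61 and -0.76 (adjusted p of 0.00201 and 0.0103, edgeR), whereas the related chemokines *Cxcl2* and *Cxcl3* were higher, with 2.39 and 2.54 (adjusted p of 0.000291 and 0.00462, edgeR). *Ptgs2*, the inducible cyclooxygenase, fell from 736 to 337 CPM (log2 fold change -1.13, adjusted p = 0.0219, edgeR), with 12450, 13161 and 12876 counts in WT and 6720, 3690 and 8140 counts in *Aff3ir-ORF2-/-* libraries, and its adjusted p was 0.0521 when no filter on low counts was used. The matrix protease *Mmp3* went from 157 to 247 CPM and did not pass the test (adjusted p = 0.0537, edgeR). Several genes of this list answer to other signals than IL-1 and are also expressed by macrophages.

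**Figure D4:**
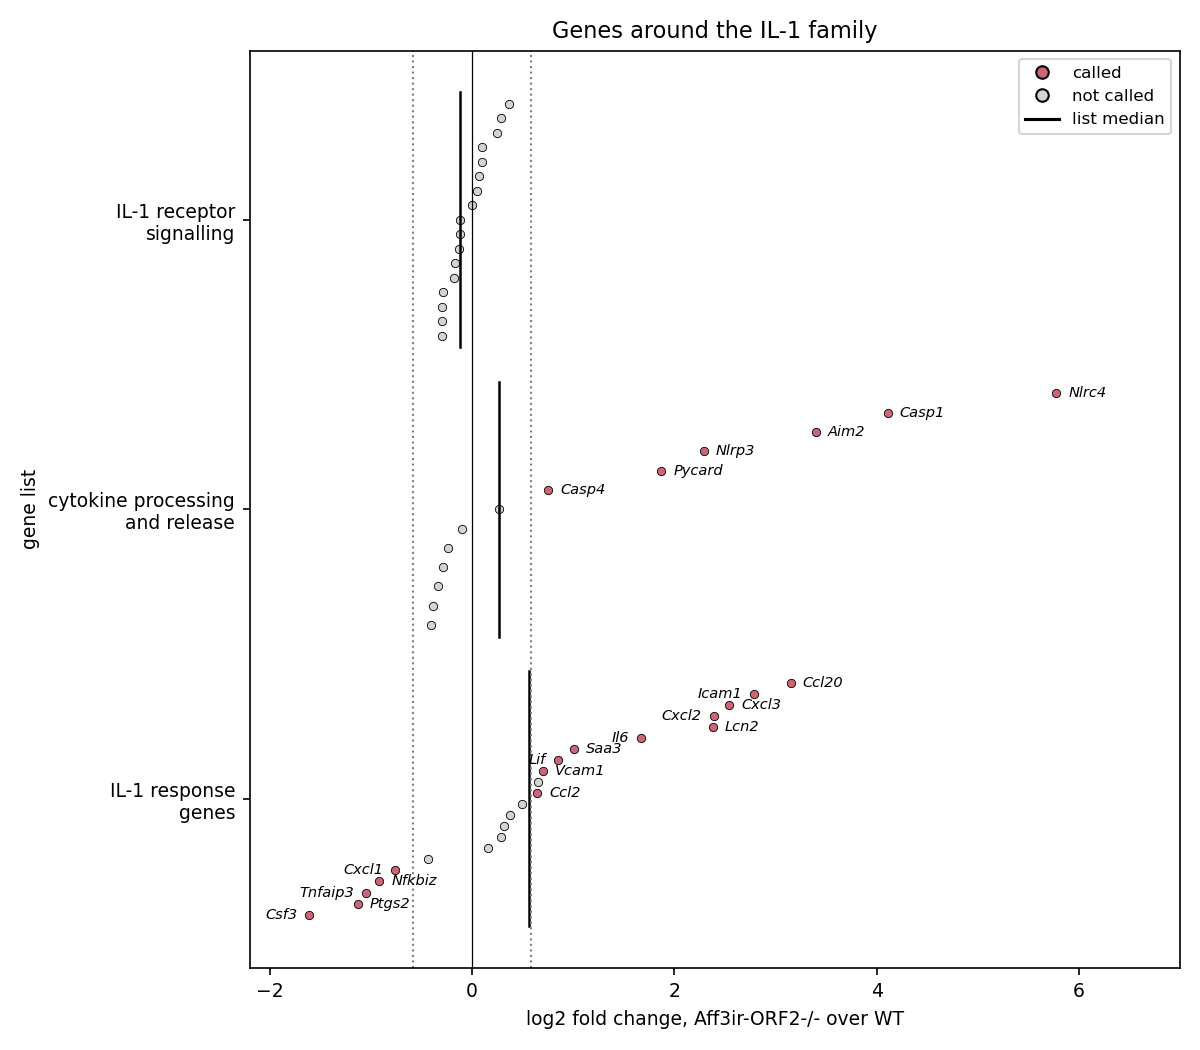
Log2 fold change, *Aff3ir-ORF2-/-* over WT, of the tested genes of 3 lists, IL-1 receptor signalling, cytokine processing and release, and IL-1 response genes, with called genes named, the list median as a line and dotted lines at a 1.5-fold change. The 17 signalling genes stay between -0.30 and 0.36, 6 processing genes are called higher, and the response genes fall on both sides; the position of *Nlrc4* rests on 1 count in WT.

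Markers of other cells moved with several of these genes. The macrophage markers that rose included *Lyz2*, *Mpeg1* and *Cd68*, with log2 fold changes of 6.71, 6.85 and 4.08. Of the 16 markers, 4 were at 0 in every WT library (*Fcgr1*, *Aif1*, *C1qa* and *C1qb*) and 0 were at 0 in every *Aff3ir-ORF2-/-* library. The summed markers stood at 1187, 1646 and 2055 CPM in *Aff3ir-ORF2-/-* replicates 1, 2 and 3, whereas *Il1rn* stood at 39.8, 55.0 and 30.5 CPM. The library with the largest sum thus had the least *Il1rn* and the only *Il1b* reads of that genotype. Not all markers followed the order of the sum. *Adgre1* (30.3, 50.2 and 47.9 CPM), *C1qa*, *C1qc* and *Fcgr1* were highest in replicate 2, as *Il1rn* was. The other markers were highest in replicate 3. Per 100 CPM of macrophage markers, *Il1rn* was 9.07, 7.16 and 8.11 CPM in WT and 3.36, 3.34 and 1.48 CPM in *Aff3ir-ORF2-/-* libraries, so it rose less than their sum. *Lyz2* made up most of that sum in *Aff3ir-ORF2-/-* libraries, at 794, 1086 and 1372 CPM. Taken singly, the tested markers had log2 fold changes of 1.94 to 11.7, and that of *Il1rn*, 4.32, lay within this range. The part of macrophage RNA in the change of *Il1rn*, of the inflammasome genes or of the response genes was not tested.

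**Figure D5:**
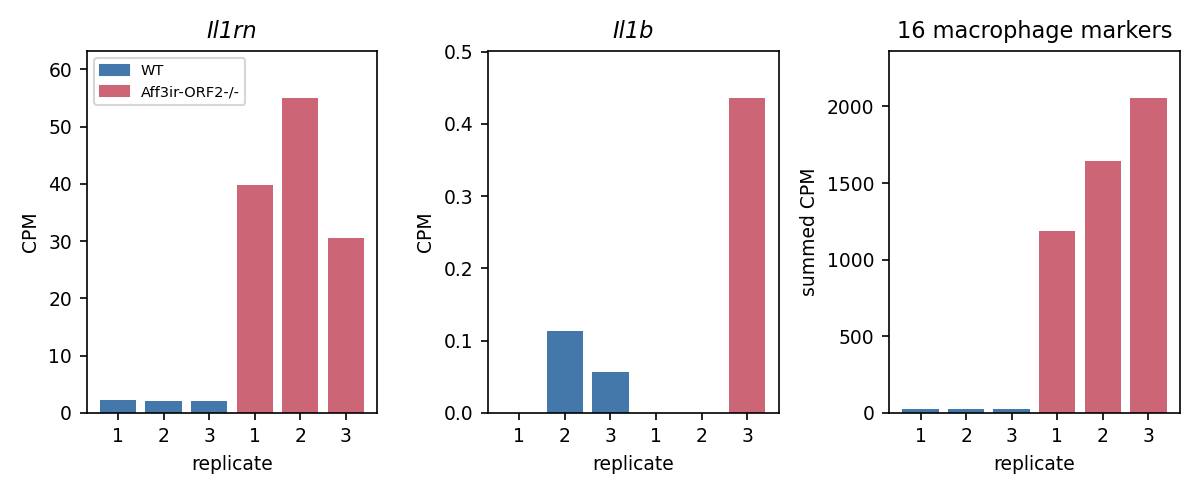
CPM of *Il1rn*, CPM of *Il1b* and summed CPM of 16 macrophage markers in each library, as bars from 0. In the *Aff3ir-ORF2-/-* libraries the sum, most of it *Lyz2*, climbs to 2055 CPM in replicate 3. There *Il1rn* is at its lowest of 30.5 CPM and *Il1b* has its only reads of that genotype. Some single markers, such as *Adgre1*, are highest in replicate 2.

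The receptors that fell are also known from mast cells, lymphoid cells and epithelia. Of 9 mast cell markers 6 were in the table, with sums of 3.64 to 4.06 CPM in WT and 8.64 to 12.5 CPM in *Aff3ir-ORF2-/-* libraries. *Gata2* made up most of this and rose to 10.6 CPM (adjusted p = 4.86e-05, edgeR), *Ms4a2* and *Kit* had at most 9 and 5 counts, and the defining genes *Cpa3* and *Cma1* had at most 1 count in any library. The 7 markers of T cells and innate lymphoid cells in the table summed to 602 to 628 CPM in WT and 448 to 672 CPM in *Aff3ir-ORF2-/-* libraries, nearly all of it *Thy1*, which fibroblasts express. Of the 4 tested, 3 were called higher in *Aff3ir-ORF2-/-* MEFs, where 14.2% of all genes tested were called higher and 7.27% lower. These were *Il7r* with 4 to 8 counts in WT and 146 to 251 counts in *Aff3ir-ORF2-/-* libraries, *Rora* with 309 to 372 and 564 to 876 counts, and *Gata3* with a log2 fold change of 1.02. *Il7r* was tested only because of its *Aff3ir-ORF2-/-* counts, so this number is partly set by the filter. *Cd4* had at most 1 count. The 9 epithelial markers in the table summed to 6.03 to 6.69 CPM in WT and 5.47 to 7.24 CPM in *Aff3ir-ORF2-/-* libraries, led by *Krt18*, *Krt10* and *Krt8*, with *Epcam* at no more than 4 counts. The 7 endothelial markers in the table summed to 7.94 to 8.87 CPM in WT and 16.5 to 21.3 CPM in *Aff3ir-ORF2-/-* libraries. Of the 5 tested, *Kdr*, *Vwf* and *Erg* were called higher, with log2 fold changes of 1.01, 2.24 and 2.51. *Erg* had only 5, 3 and 7 counts in WT and was tested only because of its *Aff3ir-ORF2-/-* counts. *Cdh5* was called lower, with -0.90 (adjusted p = 0.0294, edgeR). *Tek* was lower with -1.28 and did not pass the test (adjusted p = 0.0564, edgeR), and *Pecam1* had at most 5 counts. The 5 neutrophil markers in the table summed to at most 0.406 CPM in WT and 2.34 CPM in *Aff3ir-ORF2-/-* libraries, where *S100a8*, *Csf3r* and *Camp* had at most 18, 21 and 4 counts and *Ly6g* at most 1. Of the 10 fibroblast markers, 2 were called higher and 0 lower, with a median log2 fold change of 0.08. The most abundant were *Col1a1* and *Col1a2*, with log2 fold changes of -0.49 and -0.41 (adjusted p of 0.0125 and 0.0366, edgeR), and *Col3a1* with 0.02, whereas *Lum* and *Pdgfrb* rose with 2.17 and 0.59. The part of any of these cell types in the changes of the receptor genes was not tested.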

How the data were processed

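RNA-seq of WT and *Aff3ir-ORF2-/-* MEFs, 3 libraries of each genotype as the titles give them, was used. The authors had the DNBSEQ reads filtered with SOAPnuke and deposited 1 table of estimated counts that are not normalized. The aligner, counting tool and annotation are not given in the sources used here, and the submitters' processing notes name mm8, so genes are placed by their order in RefSeq GRCm38.p6, in which 17043 of 17092 gene IDs were found, and coordinates are given only for its promoter windows, which were matched by symbol. The deposited estimated counts, of which 10.6% to 11.3% were not whole, were rounded.

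With edgeR 4.0.16, low genes were removed by filterByExpr (minimum count 10, minimum total 15) and libraries were scaled by TMM and compared with the robust quasi-likelihood test, without covariates, over all 13075 genes left. The standard error was taken from the F statistic. Lengths of the longest GENCODE M21 transcript were found for 96.4% of genes. On simulated counts with 200 genes of 13050 changed 3-fold, 199 of them and 2 others were called. The changed genes left out those with few counts, and every gene of a genotype had the same spread. Far fewer genes were changed than differ in the data, so the recovery does not carry over to genes with few counts or uneven spread.

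The family genes and the gene lists were chosen with earlier results of these data known. All family genes are named. Of the signalling, processing and response lists up to 6 called genes by adjusted p and the 2 with the most counts are named, and of marker lists the 3 with the most counts. Other genes were chosen after their values were seen. Alternatives were DESeq2 size factors, upper quartile scaling, total counts, no filter, at least 10 counts in every library, DESeq2 1.42.0, limma 3.58.1 voom, a replicate block, leaving out each library, the adjusted p alone, a 2-fold change and, chosen after seeing the data, the test without robust estimation. R 4.3.3, Python 3.11.15, scipy 1.17.1 and matplotlib 3.10.9 were used. *Aff3ir* was not analysed here.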

Additional observations from a re-analysis of the deposited data

How the results depend on the processing

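*Il1rn*, *Il33*, *Il1rl2*, *Il1rl1* and *Il1rap* kept their direction and an adjusted p under 0.05 in all 15 refits. *Il1r1* kept its direction and lost its adjusted p in 7, which were upper quartile scaling (0.0665), total counts (0.0574), no filter (0.0756) and leaving out any WT library or *Aff3ir-ORF2-/-* replicate 3. The sign turned for *Il1a* with voom (-0.01), without WT replicate 1 (-0.12) and without *Aff3ir-ORF2-/-* replicate 3 (-0.46), with -0.46 to 0.33 over the left-out libraries, and for *Il18bp* without *Aff3ir-ORF2-/-* replicate 1 (0.19, with -0.22 to 0.19). *Tab2* turned with upper quartile scaling (0.03), total counts (0.02), at least 10 counts in every library (0) and without *Aff3ir-ORF2-/-* replicate 3 (0.01, with -0.02 to 0.01). None of these was past the test in either direction, and the causes were not tested.

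With the adjusted p alone, 3831 genes were higher and 3591 lower, of the family 2 and 4, of the signalling list 3 and 7, and 5 processing genes were lower. With a 2-fold change, 1096 genes were higher and 317 lower, and 3 response genes were lower. With at least 10 counts in every library, which removes genes that are low in WT, 1 processing gene was called higher. Leaving out 1 library in turn gave 1780 to 1917 genes higher and 898 to 1030 lower, 1 family gene higher each time and 2 to 3 lower, 5 to 8 processing genes higher and 0 lower, 0 signalling genes in either direction, and 8 to 12 response genes higher and 5 lower. The 3 was reached without *Aff3ir-ORF2-/-* replicate 2, where *Il1r1* joined the called genes.

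Same-numbered libraries deviated together only weakly, with correlations of 0.0145 to 0.0424, under 0.1, although each library correlated best with its own number, so the numbers were not taken as pairs. With a replicate block, 1854 genes were higher and 954 lower, and the calls of the family genes stayed at 1 higher and 2 lower. *Ptgs2* lost its call with the block (adjusted p = 0.0789, edgeR) and with no filter (0.0521). Depth limits *Il1a*, *Il1b*, *Il18* and *Il18bp*, which had at most 30 counts in a library. Without the filter, *Il1b* had a log2 fold change of 1.23 (SE 1.42, adjusted p = 0.511, edgeR) and *Il18* of -0.04 (adjusted p = 0.966, edgeR).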
